A study of Rattus norvegicus with 6 samples.

Results

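The G1 cyclins, the kinases they activate and the inhibitors of those kinases were examined in rat bone marrow mesenchymal stem cells (BMSCs) given ginsenoside Rb1, a saponin of ginseng, or the solvent DMSO. The set holds 10 genes, namely Ccnd1, Ccnd2, Ccnd3, Ccne1, Ccne2, Cdk2, Cdk4, Cdk6, Cdkn1a and Cdkn1b. They were taken by symbol from an expression table of 22062 rows and 21797 genes, and all 10 had 1 row. There were 3 RNA-seq libraries of cells given ginsenoside Rb1 at 20 µM for 24 h and 3 libraries of cells given DMSO, the dose and time being those of the study's methods. All 6 libraries came from cultured BMSCs of Sprague–Dawley rats aged 4 weeks, used at passages 2 to 3, and carried no genetic change. The labels call the animals female, whereas the methods call them male. Neither says how many animals were used or whether replicate libraries stem from independent cultures. The p-values therefore speak only for these libraries. They set the difference between groups against the spread among libraries, which can be technical variation.

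Cells decide in G1 whether to copy their DNA or to leave the cycle. Cyclins of the D type respond to growth signals and activate CDK4 and CDK6, which begin to phosphorylate the retinoblastoma protein RB and so free the E2F transcription factors. Cyclins of the E type then activate CDK2, which completes that step and starts replication. The CIP/KIP inhibitors p21 (Cdkn1a) and p27 (Cdkn1b) block CDK2, and stromal progenitors leave the cycle as they mature into bone or fat cells.

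The libraries held between 8197157 fragments (Rb1 replicate 1) and 14177062 fragments (Rb1 replicate 3). Levels were given in FPKM, that is, fragments scaled for transcript length and for library size, so that levels of different genes can be set side by side. Rb1 replicate 1 stood apart from the other Rb1 libraries, with Pearson correlations across genes of 0.971 and 0.973 with them, against 0.989 between those. Of 8 stromal markers 8 reached 1 FPKM. The labelled cells also carried macrophage markers, 7 of 7, with Cd68 and Lyz2 among them. Of 4 haematopoietic markers with a row 1 reached 1 FPKM in any library, and the T cell marker Cd3e was at 0 in all. Osteoclast markers, of which 3 of 4 reached that level, summed to 271.0 to 356.1 FPKM with Rb1 and 301.5 to 338.9 FPKM with DMSO. The 2 erythroid markers with a row summed to 0 to 92.4 FPKM with Rb1 and 5.33 to 65.3 FPKM with DMSO. Summed macrophage markers lay at 3789 to 4149 FPKM in the Rb1 libraries and 3380 to 3413 FPKM in the DMSO libraries, and summed stromal markers at 6286 to 8362 FPKM with Rb1 and 8522 to 9576 FPKM with DMSO. Adipocyte markers summed to 190.0 to 237.5 FPKM with Rb1 and 141.3 to 155.6 FPKM with DMSO, and endothelial markers to 21.3 to 23.3 FPKM with Rb1 and 32.1 to 49.6 FPKM with DMSO. Of 4 adipocyte markers 2 reached 1 FPKM in any library, and Plin1 and Lep did not. Of 6 endothelial markers with a row 3 did, and Cdh5, Kdr and Tek did not. Transcripts of the mitochondrial genome took 18.1% to 24.8% of all FPKM with Rb1 and 10.2% to 18.5% with DMSO. The part of these shifts in the differences given next was not tested. In such bulk cultures, fewer cells of a type and less RNA per cell cannot be told apart.

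Cyclin E2 was at a higher and cyclin D3 at a lower level in the Rb1 libraries than in the DMSO libraries, and these were the 2 members whose groups did not overlap. Neither passed the test over all genes. With limma on log2(FPKM + 1) and Benjamini-Hochberg adjustment over the 10781 genes tested, 0 of the 10 members had an adjusted p under 0.05, where 0.0186% of all genes tested did. At an unadjusted p under 0.05 there were 2 of the 10 members, against 22.9% of all genes tested, and voom on recovered fragments also gave 0 members past the adjusted threshold and 2 at the unadjusted p. A share of 32.3% of all genes tested had groups that did not overlap, so the members did not stand out from the table in either count. By value 3 members were higher and 7 lower with Rb1, although Ccnd2 and Cdk2 were higher under quantile normalization and median scaling. Of all genes tested, 41.0% were higher by value. The log2 differences of the members had a median of −0.06, against −0.07 over all genes tested. For 8 members the 95% interval of the difference included 0, and for 4 of these it stayed within 0.5 of 0 on either side.

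**Figure D1:**
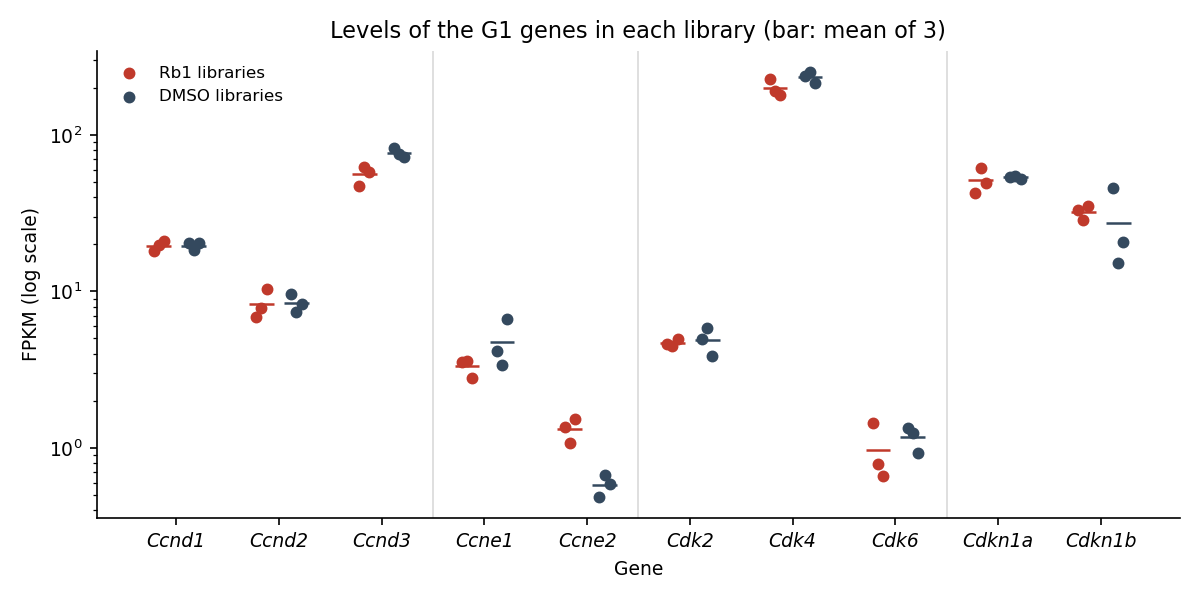
FPKM (log axis) of the 10 G1 genes, with a point for each library and a bar for the mean of 3, Rb1 libraries (red) left of DMSO libraries (dark). Levels ran from 0.488 FPKM for Ccne2 in a DMSO library to 252.4 FPKM for Cdk4 in a DMSO library, and the groups were apart for Ccnd3 and Ccne2.

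The transcripts covered a wide range of levels. Cdk4 had the highest mean over the 6 libraries, 217.2 FPKM, above that of 95.7% of the genes tested. It was followed by Ccnd3 at 66.2 FPKM, Cdkn1a at 52.4 FPKM, Cdkn1b at 29.8 FPKM, Ccnd1 at 19.6 FPKM and Ccnd2 at 8.39 FPKM. Cdk2, Ccne1, Cdk6 and Ccne2 came last, with means of 4.79, 4.04, 1.07 and 0.952 FPKM. Within a library each of these genes was above the next in 6 of 6 libraries, except that Cdkn1b was above Ccnd1 in 5, Cdk2 above Ccne1 in 5 and Cdk6 above Ccne2 in 4, so the order of these 3 pairs was not settled.

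Of the D-type cyclins, Ccnd3 was the most abundant and the one whose groups separated. It was at 47.1, 62.3 and 58.1 FPKM in the Rb1 libraries, against 82.6, 75.1 and 72.01 FPKM in the DMSO libraries. Every Rb1 library was below every DMSO library, and the lowest value was in Rb1 replicate 1, the shallowest library. Among all genes tested, 20.3% lay wholly below their DMSO values in this way, and 14.6% were lower at an unadjusted p under 0.05. The log2 difference was −0.46 (standard error 0.14, 95% interval −0.78 to −0.13, adjusted p = 0.140 from limma). It was −0.34 without Rb1 replicate 1 and −0.37 when the libraries were scaled to 1 median. Cyclin D3 is known for its part in blood and muscle lineages.

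Ccnd1, the D-type cyclin best known as a target of growth factor signals, showed almost no difference. It was at 18.0, 19.8 and 21.1 FPKM with Rb1 and 20.2, 18.3 and 20.2 FPKM with DMSO, and the groups overlapped fully. The log2 difference was 0.00 (standard error 0.12, 95% interval −0.27 to 0.27, adjusted p = 0.992 from limma). Ccnd2, the third of the family, was at 6.81, 7.88 and 10.3 FPKM with Rb1 and 9.67, 7.42 and 8.27 FPKM with DMSO. Its groups overlapped too, and its interval of −0.42 to 0.37 around −0.03 leaves room for a change of either sign.

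The make-up of the D-type transcripts within a library does not depend on how libraries were scaled. Ccnd3 supplied 65.5%, 69.3% and 64.9% of the summed D-type FPKM in the Rb1 libraries, against 73.4%, 74.5% and 71.6% in the DMSO libraries. Ccnd1 supplied 25.0%, 21.99% and 23.6% with Rb1, against 18.0%, 18.1% and 20.1% with DMSO. The sum of the 3 genes was 71.9, 90.0 and 89.6 FPKM with Rb1 and 112.5, 100.8 and 100.5 FPKM with DMSO. The ratio of Ccnd1 to Ccnd3 was 0.382, 0.317 and 0.364 with Rb1, against 0.245, 0.243 and 0.281 with DMSO, and that of Ccnd2 to Ccnd3 was 0.145, 0.126 and 0.178 with Rb1, against 0.117, 0.0988 and 0.115 with DMSO. Both ratios were higher in 3 of 3 Rb1 libraries than in any DMSO library, by 0.47 and 0.43 on the log2 scale. In a two-sided exact permutation test over the libraries each gave p = 0.1, the smallest that 3 libraries against 3 can give. After adjustment over the 8 ratios tested this permutation p was 0.267 for each. Both ratios, the shares and the sum hold the same Ccnd3 values. They are therefore no separate support for a difference in Ccnd3. The ratio of Ccnd1 to Ccnd2 lay between 2.05 and 2.64 with Rb1 and between 2.09 and 2.46 with DMSO (log2 difference 0.04, exact permutation p = 0.7, adjusted 0.7).

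**Figure D2:**
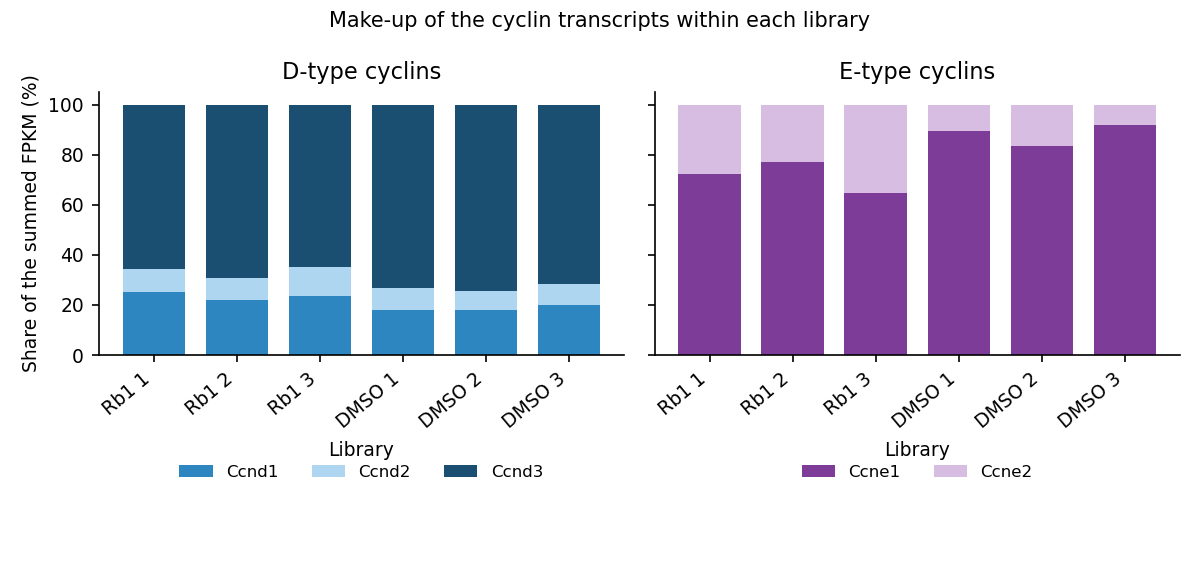
Share (%) of the summed FPKM of the D-type cyclins (left) and of the E-type cyclins (right) taken by each gene, with a stacked bar for each library, Rb1 libraries left of DMSO libraries. Ccnd3 took 64.9% to 69.3% with Rb1 and 71.6% to 74.5% with DMSO, and Ccne2 took 22.9% to 35.4% with Rb1 and 8.08% to 16.6% with DMSO.

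The promoter of Ccnd3 is shown because this was the member with the clearest separation at a well-measured level. RefSeq promoter sequences of the rat assembly GRCr8 were matched by symbol for 6 of the 10 members, and the 250 bases before each start site were searched on both strands. The Ccnd3 sequence lies at chr9:20897876-20898125 on the minus strand and is written 5′ to 3′, with a CCAAT box (CCAAT) and 2 GC boxes (GGGCGG or its reverse complement) in capitals.
Ccnd3: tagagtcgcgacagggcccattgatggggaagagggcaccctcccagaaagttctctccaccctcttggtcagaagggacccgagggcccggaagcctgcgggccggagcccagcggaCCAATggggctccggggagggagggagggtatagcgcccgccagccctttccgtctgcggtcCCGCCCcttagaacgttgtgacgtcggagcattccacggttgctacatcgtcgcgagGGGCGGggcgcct
The CCAAT box began 132 bases and the GC boxes 70 and 13 bases before the start site. At least 1 CCAAT box was found in 34.02% of all 33469 promoters of this length and in 3 of the 6 members matched, and at least 1 GC box in 30.5% of all promoters and 5 of the 6 members. A match of letters is a description of the sequence and was not measured as a binding site.

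Of the E-type cyclins, which pair with CDK2 at the entry into S phase, Ccne2 was higher and Ccne1 was not separable. Ccne2 was at 1.35, 1.07 and 1.54 FPKM in the Rb1 libraries, against 0.488, 0.670 and 0.588 FPKM in the DMSO libraries. These values came from 34, 41 and 66 fragments with Rb1 and 15, 22 and 22 fragments with DMSO, so every Rb1 library was higher than every DMSO library although the counts were low. The mean FPKM was 2.27 times as high with Rb1. The log2 difference was 0.55 (standard error 0.12, 95% interval 0.26 to 0.84, adjusted p = 0.117 from limma). The added 1 FPKM compresses a gene at this level, and the difference was 1.05 with a pseudocount of 0.1 and 1.16 with voom on recovered fragments (adjusted p = 0.133 and 0.0923 from limma). Of all genes tested, 11.9% lay wholly above their DMSO values and 8.27% were higher at an unadjusted p under 0.05.

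Ccne2 reached the minimum of 1 FPKM in 3 Rb1 libraries and in 0 DMSO libraries, and 3 libraries were needed for the test. A gene that enters in this way had to differ, and its place in the counts above carries that limit. The table gives Ccne2, on the plus strand, the same interval as Ints8 on the minus strand, at 24434871 to 24493670 of chromosome 5. Which rat build these positions refer to is not stated. The kit keeps the strand, but no source used here gives the strand setting of the counting, so whether reads of the pair were kept apart is unknown. Ints8, a subunit of the Integrator complex, was looked up for this reason. It was at 8.87, 5.85 and 7.44 FPKM with Rb1 and 6.02, 6.62 and 7.32 FPKM with DMSO, with overlapping groups.

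Ccne1 was at 3.56, 3.60 and 2.81 FPKM with Rb1 and 4.19, 3.37 and 6.69 FPKM with DMSO. DMSO replicate 3 was far above the rest, and the groups overlapped. The log2 difference was −0.37 (standard error 0.21, limma adjusted p = 0.326) and was −0.14 without that library. Within libraries the ratio of Ccne1 to Ccne2 was 2.63, 3.36 and 1.83 in the Rb1 libraries, against 8.58, 5.03 and 11.4 in the DMSO libraries. The ratio was lower in 3 of 3 Rb1 libraries than in any DMSO library, with a log2 difference of −1.64 (exact permutation p = 0.1, the smallest possible, adjusted 0.267). Without any 1 library that difference lay between −1.97 and −1.38, and with 1 FPKM added to both genes it was −0.92. The ratio holds the same Ccne2 values, which reached 1 FPKM only in Rb1 libraries. It is therefore no separate support for a difference in Ccne2. Summed over both genes, E-type FPKM was 4.92, 4.67 and 4.35 with Rb1 and 4.68, 4.04 and 7.28 with DMSO, and these ranges overlapped.

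Kinase transcripts were dominated by Cdk4, the partner of the D-type cyclins. It was at 229.3, 190.5 and 180.0 FPKM with Rb1 and 236.7, 252.4 and 214.7 FPKM with DMSO. Rb1 replicate 1 lay among the DMSO libraries, and the other Rb1 libraries lay below all of them. Its log2 difference was −0.23 (standard error 0.14, 95% interval −0.55 to 0.08, adjusted p = 0.331 from limma). Without Rb1 replicate 1 it was −0.34, with an adjusted p of 0.153 from limma, without Rb1 replicate 3 it was −0.16, and with median scaling −0.15. The table places Cdk4 on the plus strand of the interval that also holds Tspan31, a tetraspanin gene, on the minus strand, at 70349862 to 70355619 of chromosome 7. Tspan31 was at 86.2, 57.9 and 63.2 FPKM with Rb1 and 60.4, 65.0 and 63.6 FPKM with DMSO, and Rb1 replicate 1 was the highest library.

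The promoter of Cdk4 is shown because it was the only one of the 6 matched members with an E-box, the letters CACGTG that MYC and its partner MAX can bind. It lies at chr7:64771203-64771452 on the plus strand of GRCr8, with the E-boxes in capitals.
Cdk4: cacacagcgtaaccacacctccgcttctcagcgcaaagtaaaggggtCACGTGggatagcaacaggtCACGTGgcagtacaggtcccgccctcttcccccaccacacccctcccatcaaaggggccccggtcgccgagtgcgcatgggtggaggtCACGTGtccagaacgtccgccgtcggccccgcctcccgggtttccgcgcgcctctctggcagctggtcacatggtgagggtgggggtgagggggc
The 3 E-boxes began 203, 183 and 95 bases before the start site, and the motif reads alike on both strands. At least 1 was found in 5.59% of the 33469 promoters and 3 or more in 0.0508%. Myc itself was at 75.2, 88.4 and 91.0 FPKM with Rb1 and 96.4, 70.0 and 78.2 FPKM with DMSO, with overlapping groups. The E2F motifs TTTCCCGC, TTTGGCGC, TTTCGCGC and TTTGCCGC were found in 0 of the 6 members and 1.73% of all promoters.

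Cdk6, the second partner of the D-type cyclins, was near the minimum level for the test. It was at 1.45, 0.789 and 0.658 FPKM with Rb1 and 1.34, 1.25 and 0.925 FPKM with DMSO, from 13 to 17 fragments in the Rb1 libraries and 16 to 19 in the DMSO libraries. Rb1 replicate 1 was the highest of the 6 libraries and the other Rb1 libraries the lowest. It entered the test with 1 Rb1 library and 2 DMSO libraries at 1 FPKM or more (log2 difference −0.16, 95% interval −0.57 to 0.25). On leaving out 1 library the difference lay between −0.33, without Rb1 replicate 1, and −0.048, without Rb1 replicate 3, and voom gave −0.40. The adjusted p was 0.184, 0.892 and 0.547 in these 3 limma fits. Cdk4 was 158.1 to 273.4 times as abundant as Cdk6 in the Rb1 libraries and 176.0 to 232.0 times in the DMSO libraries (exact permutation p = 0.7, adjusted 0.7 over 8 ratios). Cdk2, the partner of the E-type cyclins, was at 4.603, 4.502 and 4.99 FPKM with Rb1 and 4.98, 5.81 and 3.86 FPKM with DMSO. The Rb1 values lay inside the DMSO range, and the log2 difference was −0.03 (95% interval −0.38 to 0.31).

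The inhibitor Cdkn1a, the most abundant CIP/KIP gene here, was at 42.8, 61.3 and 49.3 FPKM with Rb1 and 54.0, 54.3 and 52.6 FPKM with DMSO. The DMSO libraries were almost alike, within a factor of 1.03, whereas the Rb1 libraries spread on both sides of them by a factor of 1.43. For Cdkn1a the log2 difference was −0.08 (standard error 0.15, 95% interval −0.43 to 0.26, adjusted p = 0.759 from limma). Cdkn1b was the most variable member and showed the opposite spread. It was at 33.0, 28.7 and 35.2 FPKM with Rb1 and 46.1, 15.2 and 20.7 FPKM with DMSO, a factor of 1.23 within Rb1 and 3.04 within DMSO.

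DMSO replicate 1 was above and the other DMSO libraries were below all Rb1 libraries for Cdkn1b. The fragments behind these levels numbered 462, 608 and 832 with Rb1 and 781, 276 and 429 with DMSO, far above those of Ccne2 and Cdk6. The log2 difference was 0.38 (standard error 0.36, limma adjusted p = 0.545). It was 0.82 without DMSO replicate 1 and 0.05 without DMSO replicate 2 (adjusted p = 0.346 and 0.947 from limma). The ratio of Cdkn1a to Cdkn1b was 1.29, 2.14 and 1.40 with Rb1, against 1.17, 3.58 and 2.54 with DMSO (exact permutation p = 0.5, adjusted 0.7). The ratio of Ccnd1 to Cdkn1a, a growth-promoting against a growth-restraining transcript, was 0.421, 0.323 and 0.428 with Rb1, against 0.375, 0.336 and 0.385 with DMSO (exact permutation p = 0.6, adjusted 0.7).

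**Figure D3:**
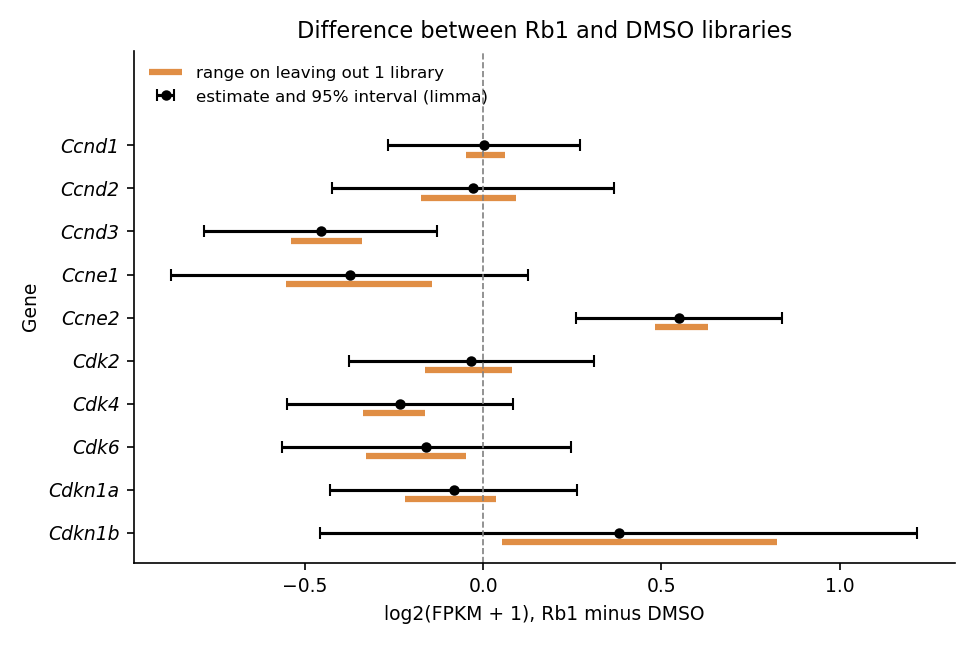
Log2(FPKM + 1) in Rb1 minus DMSO libraries for the 10 genes, with a point and 95% interval from limma (black) and the range of estimates on leaving out 1 library at a time (orange). The intervals of Ccnd3 (−0.78 to −0.13) and Ccne2 (0.26 to 0.84) lie off 0, and the orange range is widest for Cdkn1b, from 0.05 to 0.82.

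Genes that work on or under the 10 members were described from lists by role, with no list test. Over these lists 91 genes were tested, of which 47 were higher and 44 lower by value, and their log2 differences had a median of 0.01, against −0.07 over all genes tested. At an unadjusted p under 0.05 there were 20 genes, 9 higher and 11 lower, and 1 passed over all genes. These were 21.98% of the 91, against 22.9% of all genes tested, and the counts of single lists given next are to be read against that share. Groups did not overlap for 28 of the 91, 30.8%, against 32.3% of all genes tested. By value 41.0% of all genes tested were higher, and the directions within single lists are to be read against that share.

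Of 10 tested genes for other cyclins, kinases and inhibitors, 9 were higher and 1 lower by value (median log2 difference 0.24), and none passed (lowest adjusted p = 0.117 from limma, with 3 at an unadjusted p under 0.05). The kinase CDK7 with cyclin H and the assembly factor MNAT1 forms the CDK-activating kinase, which switches on CDK2 and CDK4. Ccnh was at 52.7, 46.7 and 44.6 FPKM with Rb1, against 26.1, 30.0 and 28.1 FPKM with DMSO (log2 difference 0.75, standard error 0.12, limma adjusted p = 0.117). It had the largest difference of this list, and its lowest Rb1 library was well above its highest DMSO library. Cdk7 was at 47.2, 38.4 and 38.0 FPKM with Rb1 and 31.7, 35.4 and 29.5 FPKM with DMSO, without overlap (log2 difference 0.34, adjusted p = 0.194 from limma). Mnat1, added after its values were seen, had overlapping groups and a log2 difference of 0.26, which was 0.075 without Rb1 replicate 1 and 0.41 without Rb1 replicate 2.

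Transcripts of the INK4 and p57 inhibitors differed in both directions by value. Cdkn2a, which encodes p16 and p19ARF, was at 11.1, 18.0 and 13.3 FPKM with Rb1 and 21.5, 22.6 and 17.1 FPKM with DMSO, with overlap. It was the only gene of its list that was lower by value (log2 difference −0.51, adjusted p = 0.181 from limma). Cdkn2b, which encodes p15, was at 27.9, 27.9 and 23.0 FPKM with Rb1 and 20.7, 26.0 and 21.7 FPKM with DMSO, with overlap. Cdkn2c, which encodes p18, was at 7.08 FPKM in Rb1 replicate 1 and 2.84 and 3.19 FPKM in the other Rb1 libraries, against 3.38 to 4.02 FPKM with DMSO. Its log2 difference of 0.13 was −0.21 without Rb1 replicate 1. Cdkn1c, which encodes p57, was at 28.2, 25.3 and 23.4 FPKM with Rb1 and 19.7, 23.3 and 22.4 FPKM with DMSO, with groups just apart (log2 difference 0.23, adjusted p = 0.313 from limma).

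Of 12 tested genes of the RB and E2F families and the MuvB complex, 6 were higher and 6 lower, and none passed (lowest adjusted p = 0.135 from limma, with 1 at an unadjusted p under 0.05). The retinoblastoma gene, whose symbol Rb1 is also the name of the compound, was at 1.92, 1.79 and 3.02 FPKM with ginsenoside Rb1 and 1.45, 1.12 and 2.14 FPKM with DMSO, with overlap. E2f5, a repressor E2F, had a log2 difference of 0.44 and E2f6, which represses without RB, one of 0.23, both without overlap. Rbl1, Lin9, E2f2, E2f7 and E2f8 lay below the filter on low levels. E2f1, Cdk3, Cdkn2d and Bbc3 had no row under these symbols and were not tested.

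Of 18 tested genes that E2F is known to switch on at the start of S phase, 13 were higher and 5 lower (median log2 difference 0.07), and none passed with limma (1 at an unadjusted p under 0.05). Cdc25a, the phosphatase that activates CDK2, had a log2 difference of 0.21 and Mcm2, of the replicative helicase, one of −0.24, both without overlap. Pcna, the sliding clamp, was at 71.8 FPKM in Rb1 replicate 1, 43.5 and 47.2 FPKM in the other Rb1 libraries and 43.4 to 49.5 FPKM with DMSO. Its log2 difference of 0.17 was −0.05 without Rb1 replicate 1. Of 6 markers of proliferation 3 were higher and 3 lower, Mki67 with a log2 difference of 0.32 and the checkpoint kinase gene Bub1 with one of 0.16 (0.080 without Rb1 replicate 1), and none passed (lowest adjusted p = 0.182 from limma, with 1 at an unadjusted p under 0.05).

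Transcripts for the proteins that destroy cyclins and inhibitors were split in direction. Of 17 tested genes 7 were higher and 10 lower, 3 in each direction at an unadjusted p under 0.05, and none passed (lowest adjusted p = 0.121 from limma). Ambra1, the receptor that sends D-type cyclins for degradation, was at 3.06, 4.36 and 4.32 FPKM with Rb1 and 5.92, 10.5 and 6.17 FPKM with DMSO (log2 difference −0.77, adjusted p = 0.134 from limma). Its highest Rb1 library lay below its lowest DMSO library, and DMSO replicate 2 stood above the rest. Skp1 and Cks1b act in the SCF ligase that marks p27 for degradation. Skp1 was at 520.4, 420.6 and 434.8 FPKM with Rb1 and 295.5, 308.9 and 359.2 FPKM with DMSO (log2 difference 0.51, adjusted p = 0.121 from limma). Cks1b was at 29.3, 30.8 and 30.1 FPKM with Rb1 and 23.2, 24.6 and 20.9 FPKM with DMSO (log2 difference 0.38, adjusted p = 0.135 from limma). Other listed parts of that ligase differed less, Skp2 by −0.04, Cul1 by 0.19 and Rbx1 by 0.04 (adjusted p = 0.875, 0.427 and 0.882 from limma). Whether degradation of p27 differed was not tested.

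Gdf15, which encodes a secreted stress-induced factor, was the 1 gene of all the lists that passed, and fell to 3.17, 3.74 and 3.57 FPKM with Rb1, against 10, 9.52 and 10.7 FPKM with DMSO (log2 difference −1.30, adjusted p = 0.0286 from limma). That call ended without Rb1 replicate 2 or 3 or any 1 DMSO library, with adjusted p-values from 0.162 to 0.179. It also ended with the replicate number as a block (0.221), with median scaling (0.0548) and with voom (0.0889). The difference itself stayed between −1.34 and −1.25 on leaving out 1 library, and was −1.23 with median scaling and −1.49 with voom.

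Of 13 tested transcription factors and co-factors that act on G1 genes, 3 were higher and 10 lower (median log2 difference −0.26), and none passed (lowest adjusted p = 0.121 from limma, with 3 at an unadjusted p under 0.05, all lower). Ctnnb1, which encodes beta-catenin, was at 97.1, 87.7 and 101.1 FPKM with Rb1 and 153.7, 135.2 and 120.1 FPKM with DMSO (log2 difference −0.51, adjusted p = 0.121 from limma). Jun and Smad3 had log2 differences of −0.37 and −0.35, also without overlap. Ccnd1 is a known target of beta-catenin and of JUN, and its log2 difference was 0.00. The activity of these factors was not measured, and a link to Ccnd1 was not tested.

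**Figure D4:**
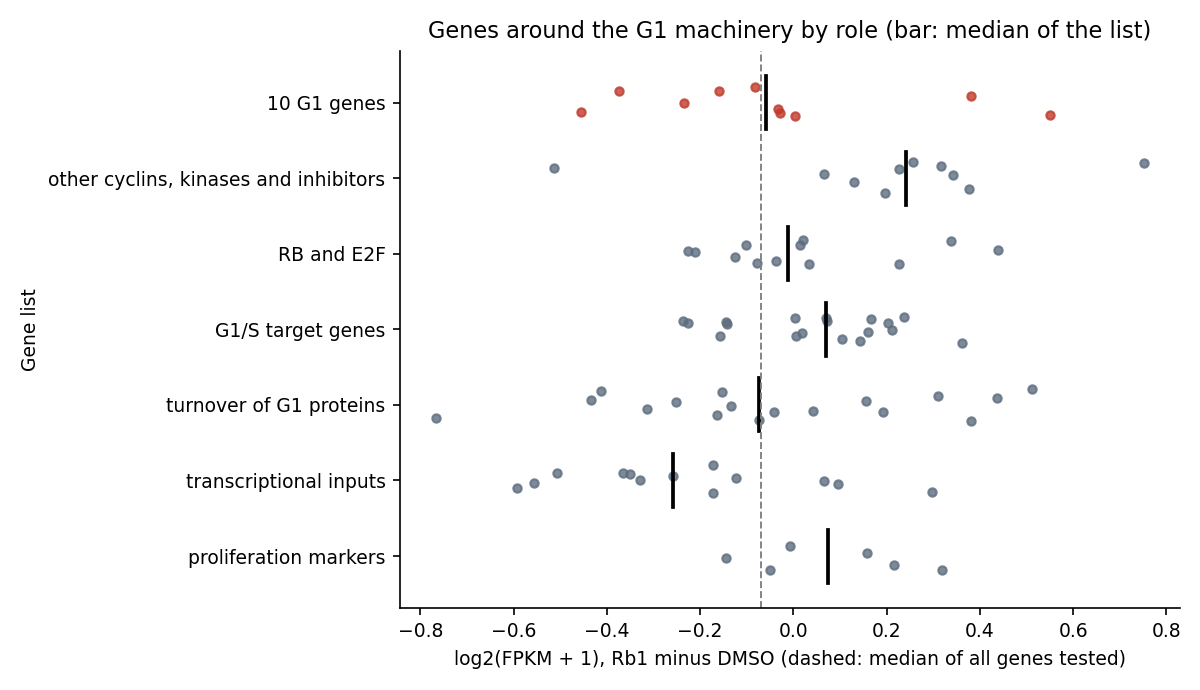
Log2(FPKM + 1) in Rb1 minus DMSO libraries for the 10 G1 genes (red) and the tested genes of 6 lists by role (grey), a point for each gene, with a bar for the list's median and a dashed line for the median of all genes tested, −0.07. Of the lists drawn, that of other cyclins, kinases and inhibitors has the highest median, 0.24, and the transcription factors the lowest, −0.26.

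Patterns over the 6 libraries were compared by the root mean square difference of log2(FPKM + 1), each gene centred on its own mean, among 100 genes. Ccnd1 was nearest to Tk1 (0.0825) and Cul4a (0.0929), Cdk4 to Ubac1 (0.0745) and Mcm3 (0.0913), and Cdkn1a to Aurka (0.0916) and Cdt1 (0.0920). These are the smallest of 100 distances over 6 libraries and describe nearness only.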

How the data were processed

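Total RNA of 6 BMSC samples was depleted of rRNA and sequenced from a stranded kit. The authors deposited FPKM values, and a signal headed as counts, which is fragment counts multiplied by 1 factor per library. Dividing by each library's commonest smallest step gave whole fragments, within 0.05, for 98.7% to 99.4% of values above 0. The submitters' processing notes name CASAVA 1.8, HISAT2 and hg19, a human build that does not match the rat identifiers; no source used here names the counting program.

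FPKM of rows that share a symbol (233 symbols) were summed. Genes with at least 1 FPKM in at least 3 of 6 libraries were tested with limma 3.58.1 in R 4.3.3 on log2(FPKM + 1), with group as the only term and Benjamini-Hochberg adjustment over 10781 genes. The scale understates changes of low genes. Ratios within a library were tested by a two-sided exact permutation test over the libraries. The fit was tested on simulated data. Libraries within a group differed beyond sampling of fragments (chi-square over degrees of freedom, 11.1 to 43.3). Differences are Rb1 minus DMSO.

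The members and lists were chosen with earlier results of these data known. Named were all members, genes past the threshold, up to 3 genes per list with the smallest p and groups apart, the retinoblastoma gene, E2f1, Myc, Cdkn1c, Cdkn2a, Cdkn2b, Cdkn2c, Mki67 and Pcna whatever their values, and the genes nearest in pattern; some of the genes this rule names, and 1 list, are not reported here. Ints8, Tspan31 and Mnat1 were chosen after their values were seen. Same-numbered libraries did not deviate together (correlations −0.004, −0.042 and 0.160). Alternatives covered the block, pseudocount, filter, scaling, variance model, library weights, summing of rows and leaving out each library; voom and a filter on the mean were added after seeing the data.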

Additional observations from a re-analysis of the deposited data

How the results depend on the processing

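The count of genes passing over the whole table, 2, was 0 with the replicate number as a block, 1 with a mean FPKM of at least 5, 1 with median scaling, 800 (7.42% of those tested) with array weights and 0 with voom, and 0 to 6 on leaving out 1 library. Members passing numbered 0 in every setting but array weights, where 1 passed, Ccne2 (0.60, adjusted p = 0.0347 from limma). That call carries the limit that Ccne2 met the filter through 3 Rb1 libraries and 0 DMSO libraries. Members at an unadjusted p under 0.05 were 2, against 1 with a mean FPKM of at least 5, which drops Ccne2, and 4 with array weights, and 2 to 4 on leaving out 1 library. The block changed no call of a member. Of all genes at an unadjusted p under 0.05, 892 were higher and 1575 lower as reported, 1279 and 1158 with quantile normalization, and 1346 and 1017 with median scaling.

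Ccnd3, Ccne1, Ccne2, Cdk4, Cdk6 and Cdkn1b kept their direction in each setting where they were tested. Differences near 0 turned. With quantile normalization Ccnd2 was at 0.065, Cdk2 at 0.067 and Aurka at 0.058. With median scaling Ccnd2 was at 0.047, Cdk2 at 0.037, Cul4a at 0.0069 and Aurka at 0.014. With array weights Ccnd2 was at 0.17, Cdkn2c at −0.11, Cul4a at 0.044 and Tspan31 at −0.0044, and with voom Ccnd2 at 0.0038. On leaving out 1 library the log2 differences ranged from −0.049 to 0.061 for Ccnd1, −0.18 to 0.092 for Ccnd2, −0.16 to 0.080 for Cdk2, −0.22 to 0.036 for Cdkn1a, −0.037 to 0.19 for Myc, −0.21 to 0.33 for Cdkn2c, −0.051 to 0.30 for Pcna, −0.031 to 0.043 for Tk1, −0.17 to 0.026 for Aurka, −0.0062 to 0.26 for Ints8 and −0.058 to 0.23 for Tspan31. The ratio of Cdk4 to Cdk6 turned to −0.074 with 1 added to both values, and on leaving out 1 library it ranged from −0.050 to 0.35 and that of Ccnd1 to Ccnd2 from −0.041 to 0.15. The cause was not tested. The block gave the same ratio differences, with a smallest possible p of 0.25. The count tests planned with edgeR and DESeq2 were not run, since the deposited columns are scaled and not all whole. Ccne2 and Cdk6 rest on 13 to 66 fragments a library.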
